A study of Homo sapiens with 2 samples.

Results

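Potassium channel genes were compared between 2 cultures of A549, an established line from a human lung adenocarcinoma with features of alveolar epithelium, each harvested at day 12 and each measured on 1 Affymetrix Human U133 plus 2.0 array. The spheroid culture grew in suspension in tumor sphere medium, which was DMEM/F12 without serum, to which N2 supplement, EGF at 20 ng/ml and, at 10 ng/ml, bFGF had been added. The monolayer culture grew attached in DMEM with 10% FBS, penicillin, streptomycin and glutamine. Medium, serum, growth factors and attachment thus changed together and cannot be told apart, and with 1 array per culture no difference had a replicate check or a test. The members were the genes whose symbol starts with KCN, with 10 antisense or overlapping transcript names left out, and 87 of the 19775 genes on the array met this rule through 170 probe sets. For a gene with several probe sets, the one of highest mean log2 signal over both arrays was used. Signals are the MAS5 values of the deposited table, in which 1 number on a linear scale stands for a probe set. A floor was set at the median of each array, 119 in spheroid culture and 108 in monolayer culture, because detection calls were not used here. A fold is written as "at least" where only 1 culture was above its floor, and no fold is given where neither was. Signals of different probe sets depend on their probes, so levels were compared between cultures and never between genes.

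Potassium channels let K+ leave the cell along its gradient and so set the membrane potential. Voltage-gated (Kv, KCNQ and KCNH) and calcium- or sodium-activated channels open on a stimulus, inward rectifiers (Kir) hold the resting potential, and K2P channels carry a background leak. Auxiliary subunits (KCNE, KCNAB, KCNIP, KCNMB) form no pore of their own and change how a channel opens or how it reaches the surface. In airway and other secretory epithelia, K+ channels recycle the K+ brought in by the sodium pump and the NKCC1 cotransporter, which maintains the driving force for chloride secretion.

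The free description that GEO holds for both samples names a different, hepatoma line and a compound. The sample titles name only the media, serum-free or DMEM with 10% FBS, while the cell line given and the paper's methods name A549. All 6 epithelial markers (KRT7, KRT8, KRT18, KRT19, EPCAM and CDH1) were above the floor in both cultures, and they went apart, with KRT19 4.64-fold higher (889 in spheroid and 191 in monolayer culture) and KRT7 3.75-fold lower (7323 in spheroid and 27459 in monolayer culture). Of 8 alveolar markers measured, 5 were above the floor in spheroid culture and 2 in monolayer culture. SFTPB and ABCA3 were above it in both, SFTPC, SFTPD and NAPSA in spheroid culture alone, and NKX2-1, LAMP3 and AGER in neither. Of 14 hepatocyte markers, 11 were above the floor in spheroid culture and 7 in monolayer culture. Their summed signal was 17935 in spheroid and 5173 in monolayer culture. In it, APOH went from 919 in monolayer to 8136 in spheroid culture and ALB from 23.4, under the floor, to 4639. At least 3-fold higher were 3 (ALB, APOH and SERPINA1), while TTR, APOA2 and TF were at the floor in both. By any amount 9 were higher and 2, FGG and APOB, lower. Of 10 neuronal markers, 6 were above the floor in both cultures, with a summed signal of 13744 in spheroid and 15697 in monolayer culture. NEFL was 3.07-fold higher (1450 in spheroid and 473 in monolayer culture), and 5 differed by less than 3-fold. By any amount 2 of the 6 were higher and 4 lower. Of 6 leukocyte markers, CD3E and ITGAM were above the floor in both cultures and CD14 in monolayer culture alone (at least 3.66-fold lower). PTPRC, LYZ and MS4A1 were above it in neither on their chosen probe sets, though 1 of 2 LYZ probe sets was above it and higher in spheroid culture. Of 8 endothelial markers, PECAM1 and EGFL7 were above it in both cultures and 6, among them CDH5 and VWF, in neither. Of 8 fibroblast markers, COL1A1 and DCN were above it in both cultures and 6 in neither on their chosen probe sets. Among these 6, COL3A1 and LUM each had 1 other probe set above it, lower in spheroid culture for COL3A1 and higher for LUM. The ratio of 3′ to 5′ signal, a measure of RNA integrity and labelling, was 1.99 in spheroid and 1.55 in monolayer culture for ACTB, and 1.15 in spheroid and 1.09 in monolayer culture for GAPDH. The part of these differences in the values of the channel genes was not tested. In RNA of whole cultures, fewer cells of a kind and less RNA per cell cannot be told apart.

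Of the potassium channel genes, 4 were at least 3-fold higher in spheroid culture and 0 at least 3-fold lower. The 4 were KCNE4, an auxiliary subunit, the inward rectifiers KCNJ16 and KCNJ6, and the sodium-activated channel KCNT2. Of the 87 members, 51 (58.6%) have no ratio, being at the floor in both cultures, beside 33.1% of all genes. Of the other 36 members, 27 were above the floor in both cultures, 4 in spheroid culture alone and 5 in monolayer culture alone. The 4 members at least 3-fold higher were 4.60% of all members and 11.1% of those above the floor, beside a background of 1.56% of all genes and 2.34% of genes above the floor. At least 3-fold lower were 0 members, against 1.41% of all genes and 2.11% of those above the floor. At 2-fold, 7 of the 36 were higher and 0 lower, while 6.86% and 5.5% of all genes above the floor were higher and lower by that much. Small differences went both ways, with 19 members higher by any amount, 16 lower and 1, KCNH4, without a direction. The share higher, 52.8% of members above the floor, was near the 51.4% over all genes above the floor. The median log2 ratio of spheroid over monolayer was 0.11 for the 36 members and 0.04 for all genes above the floor. Division by array medians moved all genes alike, by -0.14, so the members' median became -0.026 but stayed 0.078 above that of all genes. After quantile normalization the members' median was -0.013, a difference of -0.013 from that of all genes. As a yardstick without replicates, the 2 brightest probe sets of the same gene were compared over 5453 genes with 2 or more above the floor in both cultures. Whether their spread holds for signals near the floor was not tested. The log2 ratios of such pairs differed by an SD of 0.50. A ratio larger than this in size was found for 16 members, 13 of them higher and 3 lower, while 20.2% and 16.9% of all genes above the floor were higher and lower by that much.

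**Figure D1:**
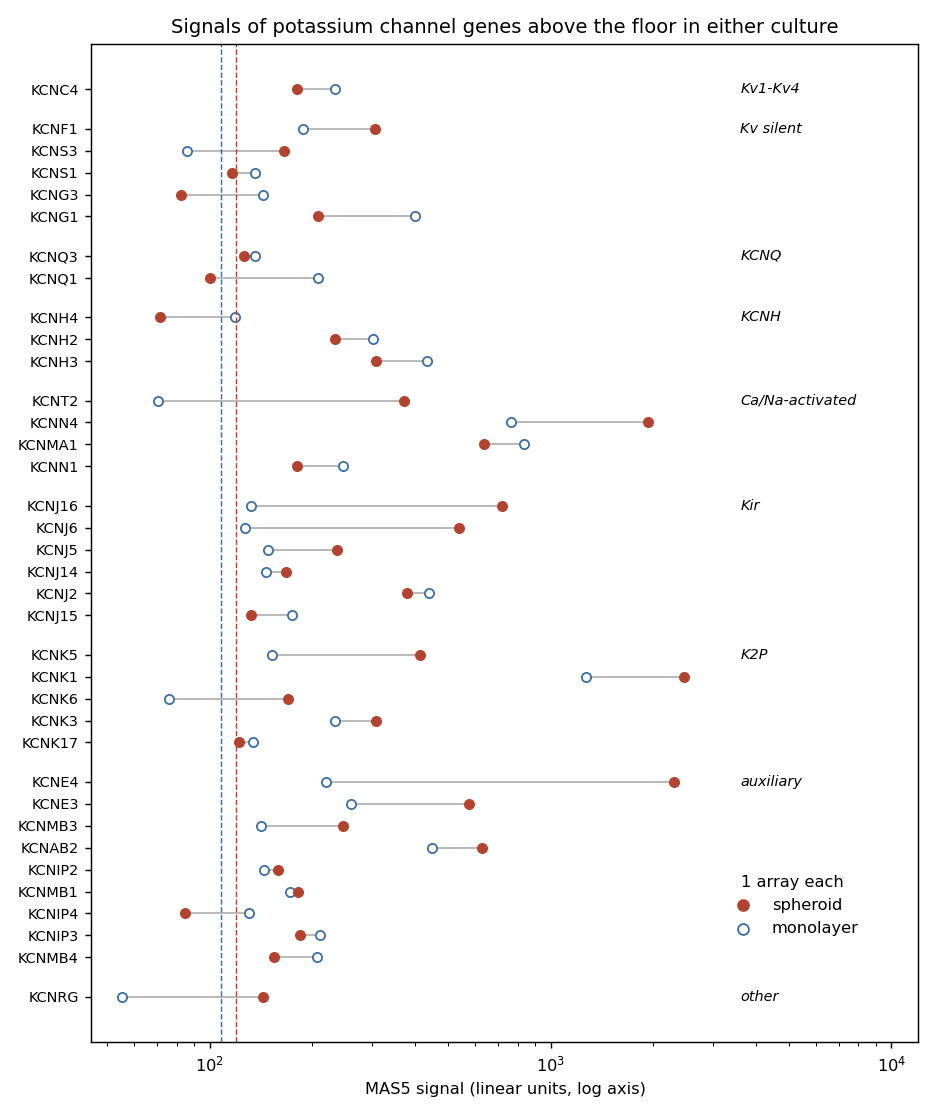
MAS5 signal on a log axis for the 36 potassium channel genes above the floor in either culture, by class, with spheroid culture as filled points, monolayer culture as open points (1 array each) and the floors as dashed lines. KCNE4, KCNJ16, KCNJ6 and KCNT2 have the widest gaps, all with spheroid culture to the right, and most voltage-gated members have spheroid culture to the left.

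The promoter windows of the genes past 3-fold are shown to let their sequences be set side by side. RefSeq windows on GRCh38.p14, from 250 bases before to 50 bases after the annotated start, matched 68 of the 87 members and 3 of these 4 genes, KCNJ16 (chr17:70074975-70075274 on the plus strand), KCNJ6 (chr21:37916408-37916707 on the minus strand) and KCNT2 (chr1:196608391-196608690 on the minus strand). Capitals mark matches on either strand to 6 motifs. The first is the TATA-binding protein motif TATAAA. The GC box bound by factors of the Sp family was searched as GGGCGG. The box of the nuclear factor Y complex was searched as CCAAT. The AP-1 site of Fos and Jun proteins was searched as TGANTCA. The E box of basic helix-loop-helix proteins was searched as CACGTG. The sterol regulatory element was searched as TCACNCCAC.
KCNJ16: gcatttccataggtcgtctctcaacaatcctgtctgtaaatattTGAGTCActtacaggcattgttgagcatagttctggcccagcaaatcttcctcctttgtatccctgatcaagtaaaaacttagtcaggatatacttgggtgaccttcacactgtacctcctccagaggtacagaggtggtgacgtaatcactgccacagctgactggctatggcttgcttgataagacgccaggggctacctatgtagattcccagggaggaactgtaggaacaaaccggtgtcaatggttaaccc
KCNJ6: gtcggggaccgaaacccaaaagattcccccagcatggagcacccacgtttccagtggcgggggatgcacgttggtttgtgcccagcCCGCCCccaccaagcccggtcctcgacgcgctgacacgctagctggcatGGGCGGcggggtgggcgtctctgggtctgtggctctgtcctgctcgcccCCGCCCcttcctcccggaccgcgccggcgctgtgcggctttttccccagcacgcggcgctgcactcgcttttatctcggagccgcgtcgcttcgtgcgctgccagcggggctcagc
KCNT2: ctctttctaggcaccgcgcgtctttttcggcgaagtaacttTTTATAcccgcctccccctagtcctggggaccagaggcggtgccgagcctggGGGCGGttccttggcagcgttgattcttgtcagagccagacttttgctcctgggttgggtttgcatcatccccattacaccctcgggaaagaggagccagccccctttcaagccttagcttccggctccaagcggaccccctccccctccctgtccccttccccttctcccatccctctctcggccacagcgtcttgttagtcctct
The 3 windows had little in common by these measures. That of KCNJ16 held 1 AP-1 match, which begins 206 bases before the start, and no GC box, with 4 CpG dinucleotides. That of KCNJ6 held 3 GC boxes and 33 CpG dinucleotides, and that of KCNT2 held 1 GC box, 1 TATA match on the opposite strand and 15 CpG dinucleotides. Of all 27305 windows of this length, 7.76% hold the AP-1 letters, 44.6% the GC box, 11.95% the TATA box, 35.7% the nuclear factor Y box, 7.43% the E box and 1.15% the sterol element, and the median window has 14 CpG dinucleotides. A match describes letters and not a bound site.

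Among auxiliary subunits, both KCNE genes above the floor stood higher in spheroid culture, and KCNE4 had the widest ratio of all members. KCNE4, a membrane-spanning subunit that inhibits KCNQ1 and some Kv1 channels, had signals of 2295 in spheroid and 219.6 in monolayer culture, 10.4-fold higher. Its other probe sets read 763 and 517 in spheroid culture, against 97.1 and 58.7 in monolayer culture, at least 7.05-fold and at least 4.78-fold higher. All 3 probe sets of KCNE4 were thus above the floor in spheroid culture, and 1 was in monolayer culture. KCNE3, which holds KCNQ1 open in secretory epithelia, had 576 in spheroid and 259.9 in monolayer culture, 2.22-fold higher, and a second probe set was at least 1.43-fold higher. KCNE1, KCNE2 and KCNE5, the other members of this group, were at the floor in both cultures. The gene of the channel that both partner, KCNQ1, did not move with them, with 100.6 in spheroid culture, which is under the floor, against 208 in monolayer culture, at least 1.74-fold lower. Its second probe set was also above the floor in monolayer culture alone, with 13.0 in spheroid and 139.8 in monolayer culture.

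The cytosolic and BK-type auxiliary subunits differed by less. KCNAB2, the Kv beta subunit with an aldo-keto reductase fold, had 627 in spheroid and 449 in monolayer culture, 1.40-fold higher. KCNMB3, a beta subunit of the BK channel, had 245 in spheroid and 141 in monolayer culture, 1.74-fold higher, and KCNMB1, the smooth muscle BK beta subunit, had 182 in spheroid and 172 in monolayer culture, within 1.06-fold and lower in spheroid culture under both other scalings. KCNMB4, the neuronal BK beta subunit, had no settled direction, since 2 of its probe sets were lower in spheroid culture (155 and 128, against 206 and 177 in monolayer culture) and the third was higher (213 in spheroid and 137 in monolayer culture). Of the KChIP genes, whose calcium-binding products escort Kv4 channels, KCNIP2 had 159 in spheroid and 144 in monolayer culture. KCNIP3 had 183 in spheroid and 211 in monolayer culture, and KCNIP4 had 84.8 in spheroid culture, under the floor, and 130.4 in monolayer culture. The second KCNIP3 probe set above the floor was higher in spheroid culture, with 171 in spheroid and 34.5 in monolayer culture. All 3 Kv4 genes measured, KCND1, KCND2 and KCND3, were at the floor in both cultures, as were KCNAB1, KCNAB3, KCNIP1 and KCNMB2. Of the 16 auxiliary subunits, 7 were at the floor, 8 differed by less than 3-fold and 1 was past it. By any amount 6 were higher and 3 lower, so that 66.7% were higher, beside 51.4% of all genes above the floor. The counts were 5 higher and 4 lower under both other scalings, and 5 and 3 without _s_at and _x_at probe sets. With the geometric mean of each gene's probe sets they were 7 higher and 1 lower. They were 9 higher and 5 lower with the floor at the 25th percentile and 9 higher and 7 lower with none.

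Inward rectifiers included 2 members past 3-fold, both higher in spheroid culture. KCNJ16 encodes Kir5.1, a pH-sensitive subunit that works in pairs with Kir4.1 or Kir4.2 in the kidney tubule and elsewhere. It had signals of 719 in spheroid and 132 in monolayer culture, 5.44-fold higher, while its other probe set was at the floor in both, at 11.3 in spheroid and 5.86 in monolayer culture. KCNJ10, the gene of Kir4.1, was at the floor in both cultures, and KCNJ15, the gene of Kir4.2, had 132 in spheroid and 175 in monolayer culture, 1.32-fold lower, with a second probe set higher in spheroid culture (128, against 35.5 in monolayer culture). Neither partner gene was thus higher in spheroid culture on its chosen probe set.

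KCNJ6 encodes GIRK2, an inward rectifier opened by G protein beta-gamma subunits and best known from neurons. It had signals of 538 in spheroid and 127 in monolayer culture, 4.25-fold higher, and its second probe set had 287 in spheroid and 71.8 in monolayer culture, at least 2.65-fold higher. Of the other members in the G protein-gated group, KCNJ5 (GIRK4) had 237 in spheroid and 148 in monolayer culture. It was 1.60-fold higher on 1 of its 6 probe sets, of the _x_at kind, which can match several genes. KCNJ9 was at the floor in both cultures, and KCNJ3 was not among the members. KCNJ2, the gene of the classical strong rectifier Kir2.1, had 378 in spheroid and 439 in monolayer culture, and KCNJ14, of the same subfamily, had 168 in spheroid and 146 in monolayer culture. Both differed by less than the spread between probe sets of a gene. KCNJ1, KCNJ4, KCNJ8, KCNJ11 and KCNJ13 were also at the floor. KCNJ11 encodes the pore of the classical KATP channel, whose sulphonylurea receptor gene is ABCC8. It had 338 in spheroid culture, against 34.5, under the floor, in monolayer culture, at least 3.12-fold higher on 1 of its 2 probe sets. The other ABCC8 probe set was at the floor in both cultures. Of 13 Kir genes, 7 were at the floor, 4 differed by less than 3-fold and 2 were past it. The near-identical KCNJ12 and KCNJ18 share their 3 probe sets, all under the floors, and were left out.

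Channels opened by internal calcium or sodium went both ways. KCNT2 encodes Slick, a sodium-activated channel, and had 370.4 in spheroid culture, against 70.5 in monolayer culture, under the floor, so that it was at least 3.42-fold higher. Its other probe set was at the floor in both cultures, with 48.8 in spheroid and 31.3 in monolayer culture, and KCNT1, the gene of the related Slack channel, was at the floor too. KCNN4, the calcium-activated channel of intermediate conductance on the basolateral side of airway cells, had 1931 in spheroid and 767 in monolayer culture, 2.52-fold higher, read from 1 probe set. KCNMA1, the pore of the large-conductance BK channel, had 636 in spheroid and 835 in monolayer culture, 1.31-fold lower, and its second probe set (215 in spheroid and 303 in monolayer culture) went the same way. KCNN1, a small-conductance channel, had 180.2 in spheroid and 247 in monolayer culture, 1.37-fold lower. KCNMA1 and KCNN1 stayed within the spread between probe sets of a gene, and KCNN3 and KCNU1 were at the floor in both cultures.

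K2P leak channels that were above the floor mostly had higher signals in spheroid culture, although 0 of 14 passed 3-fold. KCNK5 encodes TASK-2, an alkaline-activated channel of epithelia that takes part in volume regulation. It had 414 in spheroid and 152 in monolayer culture, 2.72-fold higher, also read from 1 probe set, and was the member closest to the limit from below. KCNK1, the gene of the weakly rectifying TWIK-1, had 2468 in spheroid and 1268 in monolayer culture, 1.95-fold higher, and a second probe set had 485 in spheroid and 349 in monolayer culture. KCNK6 (TWIK-2) had 170.2 in spheroid culture and 76.2, under the floor, in monolayer culture, at least 1.57-fold higher. KCNK3, the acid-sensitive TASK-1, had 307 in spheroid and 233 in monolayer culture, with all 3 probe sets higher in spheroid culture. KCNK17 (TALK-2) had 122 in spheroid and 134 in monolayer culture and was the only K2P gene above the floor that was lower. By count, 4 of 5 were higher under the deposited scaling and under both other scalings. The lean was less marked with lower floors, at 7 higher and 5 lower with the floor at the 25th percentile and 9 higher and 5 lower with none. With the geometric mean of each gene's probe sets 4 were higher and 1 lower, and without _s_at and _x_at probe sets 3 and 1. Under the deposited scaling, 51.4% of all genes above the floor were higher. KCNK2, KCNK4, KCNK7, KCNK9, KCNK10, KCNK12, KCNK13, KCNK15 and KCNK16 were at the floor in both cultures, though another probe set of KCNK15 read 11.2 in spheroid and 110.4 in monolayer culture.

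**Figure D2:**
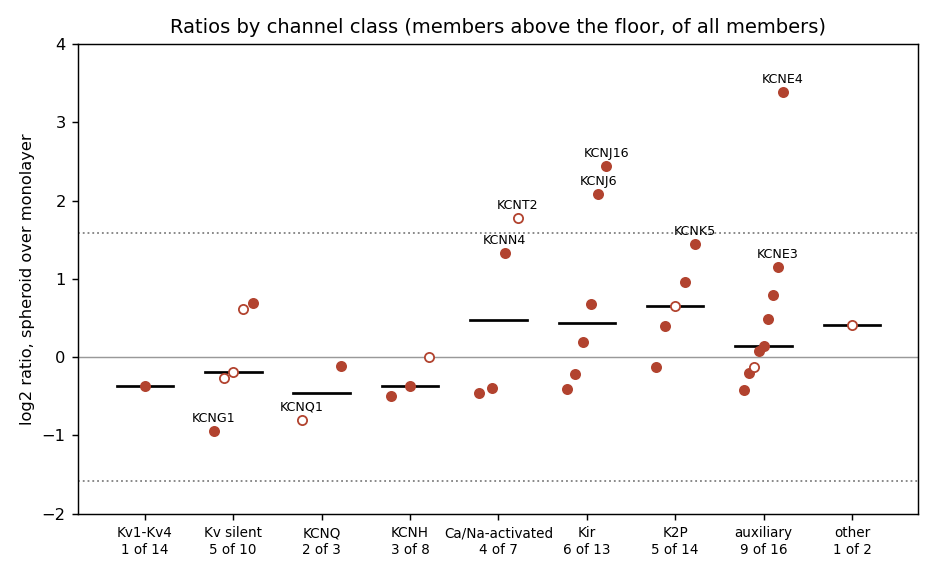
Spheroid over monolayer signal, as a log2 ratio, for each potassium channel gene above the floor, by class, with the number of such genes of all members under each class name. Filled points were above the floor in both cultures and open points in 1 culture, bars are class medians, and the dotted lines stand at 3-fold in either direction. The 4 genes above the upper line are KCNE4, KCNJ16, KCNJ6 and KCNT2, and 0 lie under the lower line.

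Voltage-gated genes were mostly at the floor, and 0 passed 3-fold. Of 35 measured, 24 (68.6%) were at the floor in both cultures, beside 33.1% of all genes. By any amount 2 were higher, 8 were lower and 1 had no direction, with a median log2 ratio of -0.27. Of those above the floor, 18.2% were thus higher, beside 51.4% over all genes. Past the SD between probe sets were KCNG1, KCNQ1 and KCNH3, all lower, and KCNF1 and KCNS3, both higher. The counts were 2 higher and 9 lower under both other scalings. With the geometric mean of each gene's probe sets they were 5 higher and 6 lower, with a median log2 ratio of -0.03. Without _s_at and _x_at probe sets they were 3 higher and 6 lower, with a median of -0.07. They were 11 higher and 13 lower with the floor at the 25th percentile and 15 higher and 20 lower with none. Of the 14 Kv1 to Kv4 genes, only KCNC4, of the fast-inactivating Kv3.4, was above the floor on its chosen probe set. It had 181 in spheroid and 233 in monolayer culture, but its other 2 probe sets (162 and 120.4 in spheroid, 122 and 116 in monolayer culture) were higher in spheroid culture. KCNA1, KCNA3, KCNA4, KCNA5, KCNA6, KCNA7, KCNA10, KCNB2, KCNC1 and KCNC2 were at the floor beside the Kv4 genes.

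Silent Kv subunits, which conduct only when joined with Kv2 subunits, went both ways. KCNG1 (Kv6.1) had 208 in spheroid and 399 in monolayer culture, 1.92-fold lower, while its other probe set was at the floor. KCNF1 (Kv5.1) went the other way, with 306 in spheroid and 188 in monolayer culture, 1.62-fold higher. KCNS3 (Kv9.3) was above the floor in spheroid culture alone, with 165 there and 85.6 in monolayer culture. KCNG3 (Kv6.3) and KCNS1 (Kv9.1) were above it in monolayer culture alone, with 82.4 and 117 in spheroid culture, against 143 and 136 in monolayer culture. The 1 Kv2 gene measured, KCNB2, was at the floor, as were KCNG2, KCNG4, KCNS2, KCNV1 and KCNV2.

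The KCNQ and KCNH genes above the floor had similar or lower signals in spheroid culture. Beside KCNQ1, described with its KCNE partners, KCNQ3 of the neuronal M current had 126 in spheroid and 136 in monolayer culture, and a second probe set went the other way (144 in spheroid and 63.8 in monolayer culture). KCNH2, the hERG channel of cardiac repolarisation, had 233 in spheroid and 301 in monolayer culture, 1.29-fold lower, and its second probe set had 174 in spheroid and 177 in monolayer culture. KCNH3, a channel of the ELK group, had 307 in spheroid and 433 in monolayer culture, 1.41-fold lower, and KCNH4, of the same group, had 71.7 in spheroid culture, under the floor, and 119 in monolayer culture, barely above it. KCNQ5, KCNH1, KCNH5, KCNH6, KCNH7 and KCNH8 were at the floor on their chosen probe sets, with another KCNH6 probe set at 125 in spheroid and 16.3 in monolayer culture. KCNRG, a putative regulator that blocks the assembly of Kv tetramers, had 143 in spheroid culture and 55.4, under the floor, in monolayer culture, and KCNQ1DN, a transcript named for its neighbour KCNQ1, was at the floor in both cultures.

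Where a gene had several probe sets above the floor, they did not always move together. Of 13 such members, 8 had all of them in 1 direction, namely KCNE4, KCNJ6, KCNE3, KCNK1 and KCNK3, all higher in spheroid culture, and KCNH2, KCNMA1 and KCNQ1, all lower. The other 5 (KCNC4, KCNIP3, KCNJ15, KCNMB4 and KCNQ3) had chosen probe sets lower in spheroid culture and at least 1 other that was higher. Both disagreement and agreement concern the same RNA on the same array and do not stand in for a second culture. KCNJ16 and KCNT2 each rested on 1 probe set above the floor out of 2.

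**Figure D3:**
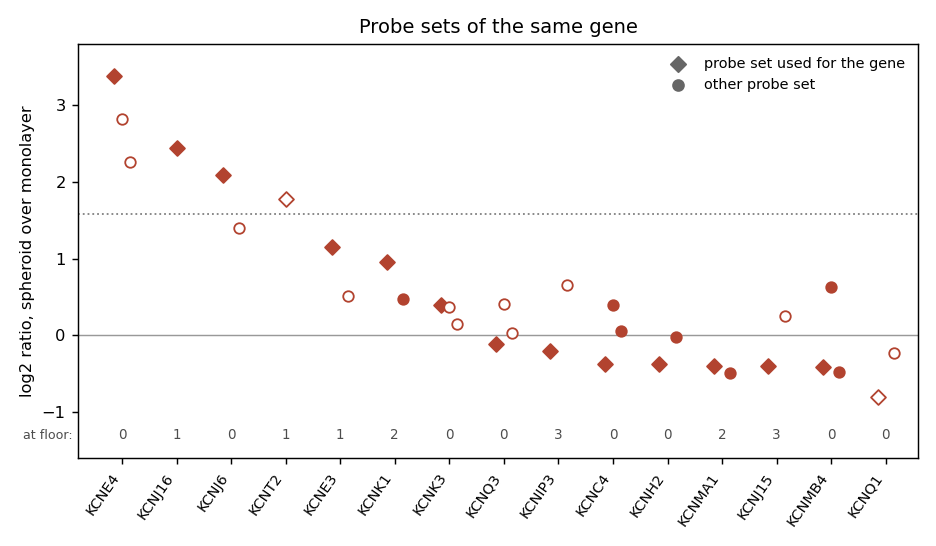
Spheroid over monolayer signal, as a log2 ratio, for every probe set above the floor, for the 13 members with several and for KCNJ16 and KCNT2, with the probe set used for the gene as a diamond and others as circles. Filled symbols were above the floor in both cultures, open ones in 1, grey numbers count the probe sets at the floor in both, and the dotted line marks 3-fold higher. All 3 symbols of KCNE4 lie above that line, and symbols of 5 genes lie on both sides of 0.

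Of the partner genes of these channels, the pump subunits, their regulators and the SLC12 cotransporters included 2 past 3-fold. Of 19 measured pump subunits, FXYD regulators and K+-coupled cotransporters, 9 were at the floor in both cultures, 8 differed by less than 3-fold, 2 were at least 3-fold higher and 0 that much lower. SLC12A2, the gene of the NKCC1 cotransporter, had 16796 in spheroid and 4924 in monolayer culture, 3.41-fold higher with both probe sets higher. FXYD2, the gamma subunit of the sodium pump, had 3489 in spheroid and 260.6 in monolayer culture, 13.4-fold higher on 1 of its 2 probe sets, the other being at the floor. ATP1B1, the main beta subunit of the pump, had 31664 in spheroid and 17162 in monolayer culture, 1.84-fold higher.

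Chloride and sodium channels with which K+ channels work in secretory epithelia were mostly at the floor. Of 13 measured, SLC26A9, an anion channel of airway epithelium, was at least 5.34-fold higher, with 578 in spheroid culture and 37.4, under the floor, in monolayer culture, while 8, among them CFTR and ANO1, were at the floor in both cultures, 4 differed by less than 3-fold and 0 were at least 3-fold lower. SCNN1A, the alpha subunit of the epithelial sodium channel, had 216 in spheroid and 525 in monolayer culture, 2.43-fold lower. Of 10 kinases and ligases that regulate such channels, 0 passed 3-fold, although SGK1 (680.4 in spheroid and 1842 in monolayer culture) and NEDD4L (397 in spheroid and 1068 in monolayer culture), a kinase and a ubiquitin ligase that control the surface level of this sodium channel, were 2.71-fold and 2.69-fold lower. Of 9 auxiliary subunits without a KCN name, 5 were at the floor in both cultures, 3 differed by less than 3-fold and ABCC8 was past it. Of 8 pore-loop channels of the HCN and CNG families, 0 passed 3-fold and 4 were at the floor, with HCN3, a hyperpolarisation-activated channel, at least 2.18-fold higher (236 in spheroid culture and 36.6 in monolayer culture).

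The 4 ratios past 3-fold depended on the floor and the probe sets in different ways. KCNE4 stayed past 3-fold under every alternative, with its lowest log2 ratio, at least 2.26, at a floor of the 75th percentile. There the monolayer signals of KCNE4, KCNJ16 and KCNJ6 were under the floor, so their ratios are lower bounds. A bound under 3-fold does not show that a difference was smaller than that. The value of KCNJ16 was under the limit when its probe sets were averaged as a geometric mean (log2 ratio 1.29). Its other probe set, at the floor on both arrays, entered that mean as the ratio of the array floors. At the 75th percentile floor the bound of KCNJ16 was also under the limit (at least 0.59). For KCNJ6 the bound was under the limit when _s_at and _x_at probe sets, which can match several transcripts or genes, were left out (at least 1.41). The monolayer signal of the probe set that remained, 71.8, was under the floor. At the 75th percentile floor its bound was at least 0.17. KCNT2 was under the limit with the geometric mean (0.96), which also averaged in a probe set at the floor on both arrays. It was at the 75th percentile floor in both cultures.

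**Figure D4:**
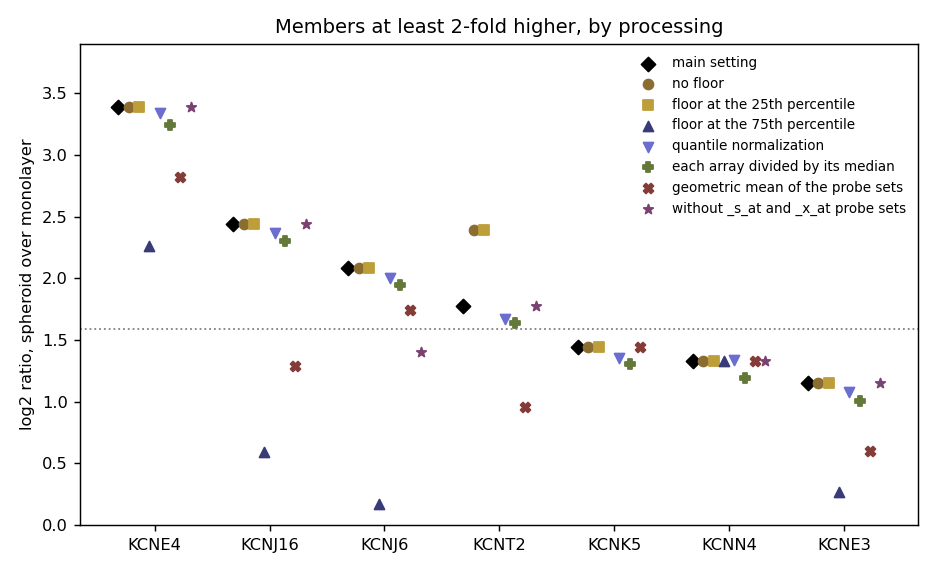
Spheroid over monolayer signal, as a log2 ratio, for the 7 members at least 2-fold higher, under the reported setting (diamonds) and the 7 alternatives named in the key, with the dotted line at 3-fold higher and a symbol left out where a gene had no value. KCNE4 lies above the line throughout, while KCNJ16, KCNJ6 and KCNT2 cross it under at least 1 alternative. Where 1 culture was under the floor used, the symbol is a lower bound.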

How the data were processed

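RNA of 1 spheroid and 1 monolayer culture was hybridised to 1 array each. The authors deposited linear signal intensities, for which the submitters' notes name MAS5 and GCOS without a version. Both arrays had a mean of 500.1 once 2% of values were removed at each end, so they were already scaled. The genome build is not given in the sources used here. Of 54675 probe sets (62 of them controls), the platform annotation gave 1 gene for 41097, several for 1801 and none for 11777, and only the first kind was used. Symbols of 41043 were updated by Entrez identifier. Values under the floor were raised to it before log2 ratios were taken. No test was run, and having 2 arrays limits precision. Members, lists and limits were chosen with earlier results of these data known. Genes named by rule were members past 3-fold, the extremes of each class among those above the floor in both cultures, the 10 of highest mean signal and up to 3 genes per partner list and direction past 3-fold, with all other members given for completeness. SCNN1A, SGK1, NEDD4L, ATP1B1, HCN3, CFTR and ANO1 were named after their values were seen. Alternatives were no floor, floors at the 25th and 75th percentiles, quantile normalization, division by array medians, geometric means over probe sets, leaving out _s_at and _x_at probe sets, and limits of 2-fold and 5-fold. Steps were tested on simulated arrays with matplotlib 3.10.9, pandas 2.3.3 and numpy 2.4.6 under Python 3.11.15.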

Additional observations from a re-analysis of the deposited data

How the results depend on the processing

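The count of 4 potassium channel genes at least 3-fold higher was 4 with a floor at the 25th percentile, quantile normalization or division by array medians, and 3 without _s_at and _x_at probe sets. It was 10 with no floor, 1 with the floor at the 75th percentile and 2 with the geometric mean of the probe sets, and 7 and 2 at limits of 2-fold and 5-fold. Where 1 culture was under the floor used, a ratio was a lower bound, as for KCNJ16 and KCNJ6 at the 75th percentile. The count at least 3-fold lower was 0 throughout except with no floor, where it was 6. The additional genes with no floor all had signals under the floor in both cultures. The median log2 ratio of 0.11 was -0.026 with division by array medians, which shifts all genes alike by -0.14 and left the members 0.078 above all genes as before. It was -0.013 with quantile normalization. A floor at the 75th percentile left 8 members with a median of 0.49. Among the named members, 117 ratios under the alternatives moved by less than the SD between probe sets and 15 by more, and 0 of the 4 past 3-fold changed sign. KCNC4 and KCNJ15 turned to higher in spheroid culture without _s_at and _x_at probe sets (0.40 and 0.25). KCNC4, KCNJ15, KCNIP3 and KCNQ3 did so with the geometric mean (0.03, 0.05, 0.17 and 0.11), and KCNMB1 to lower under both scalings. The cause was not tested. No paired analysis was possible because each culture had 1 array. Signals near the floor limit what can be read for most members.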
